A study of Homo sapiens with 18 samples.

Results

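The genes described here are 10 that encode subunits of the SWI/SNF family of chromatin remodellers: SMARCA4, SMARCA2, ARID1A, ARID1B, SMARCB1, SMARCC1, SMARCC2, SMARCD1, SMARCE1 and PBRM1. They were chosen by gene symbol, and all 10 were found among the 28395 genes of both RNA-seq tables and passed the filter on low values in every comparison. In the ATAC-seq data, which measure how accessible DNA is to a transposase, 72 of 85549 regions had a peak overlapping these genes or lying within 5 kb of them.

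K562 is a human chronic myelogenous leukaemia cell line with erythroid features. It is the parent of all 3 lines. V-K562 are the control cells, B-K562 cells express wild-type BASP1 (wtBASP1), and G-K562 cells express the mutant BASP1-G2A, whose N-terminus cannot be myristoylated. BASP1 is a transcriptional corepressor that K562 cells do not normally make. The derivative lines were stable transfectants kept as pools under G-418, so they are not single clones. Every line gave 3 replicates for RNA-seq and 3 for ATAC-seq, 9 libraries for each assay. The authors describe biological triplicates, but nothing in the labels says whether replicates were separate cultures, so p-values measure the spread between these libraries. B-K562 and G-K562 were both set against the same V-K562 libraries, and they were also set against each other.

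SWI/SNF complexes use the energy of ATP to slide or evict nucleosomes. Each complex holds 1 of a pair of alternative ATPases, SMARCA4 (BRG1) or SMARCA2 (BRM). In the forms named next, the ATPase sits on a shared core of SMARCB1, SMARCC1, SMARCC2, SMARCD1 or its relatives, and SMARCE1. ARID1A or ARID1B, which exclude each other, define the form called canonical BAF, and PBRM1 is found in the form called PBAF. Such complexes open enhancers and promoters for transcription factors, and in erythroid cells SMARCA4 is known to act at the globin genes.

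BASP1 itself had normalised read counts of 5 to 7 in the V-K562 libraries, 6294 to 6965 in the B-K562 ones and 8124 to 12538 in those of G-K562, which matched the labels. Totals of the normalised values were 32074895 to 33229588 per library and table, and the spacing of the rounded values gave an estimated 28914432 to 37039975 reads on genes behind them. Erythroid genes were present in all 9 libraries but differed between the lines: HBG2, a gamma globin, ranged over 35315 to 41997 in the V-K562 libraries, 59205 to 63100 with wtBASP1 and 5347 to 5597 with BASP1-G2A. Against V-K562, all 8 erythroid markers checked were higher in every B-K562 library, and in G-K562 7 were lower and 1, the transferrin receptor gene TFRC, was higher, at 28864 to 35087 against 20453 to 22731. The B-cell marker MS4A1 was listed at 0 in all 9 libraries, while EPCAM, an epithelial marker, stood at 1129 to 1731 and COL1A1, a fibroblast marker, at 599 to 1297. The part of these marker differences in the values below was not tested, and in bulk samples fewer cells of a type and less RNA per cell cannot be told apart. ATAC-seq gave 47111 to 55570 peaks per library. Changes were frequent over the whole transcriptome, with 75.8% of 14958 genes tested called between B-K562 and V-K562, 66.9% of 15271 between G-K562 and V-K562 and 78.5% of 15521 between G-K562 and B-K562. Calls here rest on limma with Benjamini-Hochberg adjustment over all genes tested, at an adjusted p of at most 0.05. Counts of subunits called should be read against these shares.

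The starts of 4 subunit genes are shown, 2 whose accessible start region opened in at least 1 BASP1 line (SMARCA2 and ARID1B) and 2 whose transcript moved while the start region passed no test (SMARCA4 and SMARCD1). The windows are RefSeq sequences of GRCh38.p14 on the coding strand, from 250 bases before to 50 after a start, and capitals mark the motifs found in them. The SMARCA2 window is chr9:2015097-2015396, the ARID1B window chr6:156777128-156777427, the SMARCA4 window chr19:10960780-10961079 and the SMARCD1 window chr12:50085092-50085391, all on the plus strand.
SMARCA2: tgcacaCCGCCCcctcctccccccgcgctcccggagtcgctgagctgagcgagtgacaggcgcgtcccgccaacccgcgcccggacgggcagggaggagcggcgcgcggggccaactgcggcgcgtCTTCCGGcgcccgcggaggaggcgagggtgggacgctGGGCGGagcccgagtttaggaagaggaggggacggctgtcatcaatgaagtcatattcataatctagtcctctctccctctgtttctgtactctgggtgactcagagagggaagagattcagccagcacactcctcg
ARID1B: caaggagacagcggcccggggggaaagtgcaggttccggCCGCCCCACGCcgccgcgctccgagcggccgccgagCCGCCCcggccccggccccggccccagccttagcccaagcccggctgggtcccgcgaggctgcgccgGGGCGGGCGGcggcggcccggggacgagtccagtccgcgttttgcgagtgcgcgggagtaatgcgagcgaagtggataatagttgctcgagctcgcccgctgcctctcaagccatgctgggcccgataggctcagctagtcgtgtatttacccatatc
SMARCA4: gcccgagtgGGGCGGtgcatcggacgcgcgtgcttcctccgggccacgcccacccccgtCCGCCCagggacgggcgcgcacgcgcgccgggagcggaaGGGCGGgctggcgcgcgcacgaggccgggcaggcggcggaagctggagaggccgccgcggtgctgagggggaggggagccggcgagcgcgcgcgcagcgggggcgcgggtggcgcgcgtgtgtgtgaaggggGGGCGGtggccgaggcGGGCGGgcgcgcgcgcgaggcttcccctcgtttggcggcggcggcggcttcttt
SMARCD1: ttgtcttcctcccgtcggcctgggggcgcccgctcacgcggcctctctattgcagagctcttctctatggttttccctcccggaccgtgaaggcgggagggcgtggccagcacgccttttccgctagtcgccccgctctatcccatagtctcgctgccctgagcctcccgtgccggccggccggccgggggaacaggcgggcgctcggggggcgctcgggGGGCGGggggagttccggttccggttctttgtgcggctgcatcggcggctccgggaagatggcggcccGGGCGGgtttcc

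Motifs were searched by their letters on both strands: the GC box GGGCGG, bound by SP-family factors, the CCAAT box CCAAT, the E-box CACGTG, the ETS site CCGGAAG, and GCGTGGG, a site shared by WT1 and EGR1. WT1 is the factor that BASP1 accompanies to its target promoters. RefSeq windows were matched for 8 of the 10 genes, 14 windows in all since 4 genes have more than 1 start. SMARCC1 and SMARCC2 were not matched. The GC box occurred in 9 of the 14 windows, against 45% of all 35116 promoters of the same length, and the CCAAT box in 4, against 34.6%. The ETS site occurred in 1 window, the first of SMARCA2, against 10.3% of all promoters, and the E-box in 1, the first of PBRM1, against 7.26%. The GCGTGGG letters were found in 1 window, that of ARID1B shown above, against 6.98%. There they overlap a GC box, so a single capital run holds both. The 14 windows ranged from 37.7% to 82.3% G and C, 8 above and 6 below the median of 58.7% over all promoters, and of those shown the SMARCA4 window is at 81.3% and the SMARCA2 window at 66.7%. A match to these letters is a description of the sequence and not evidence of binding.

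**Figure D1:**
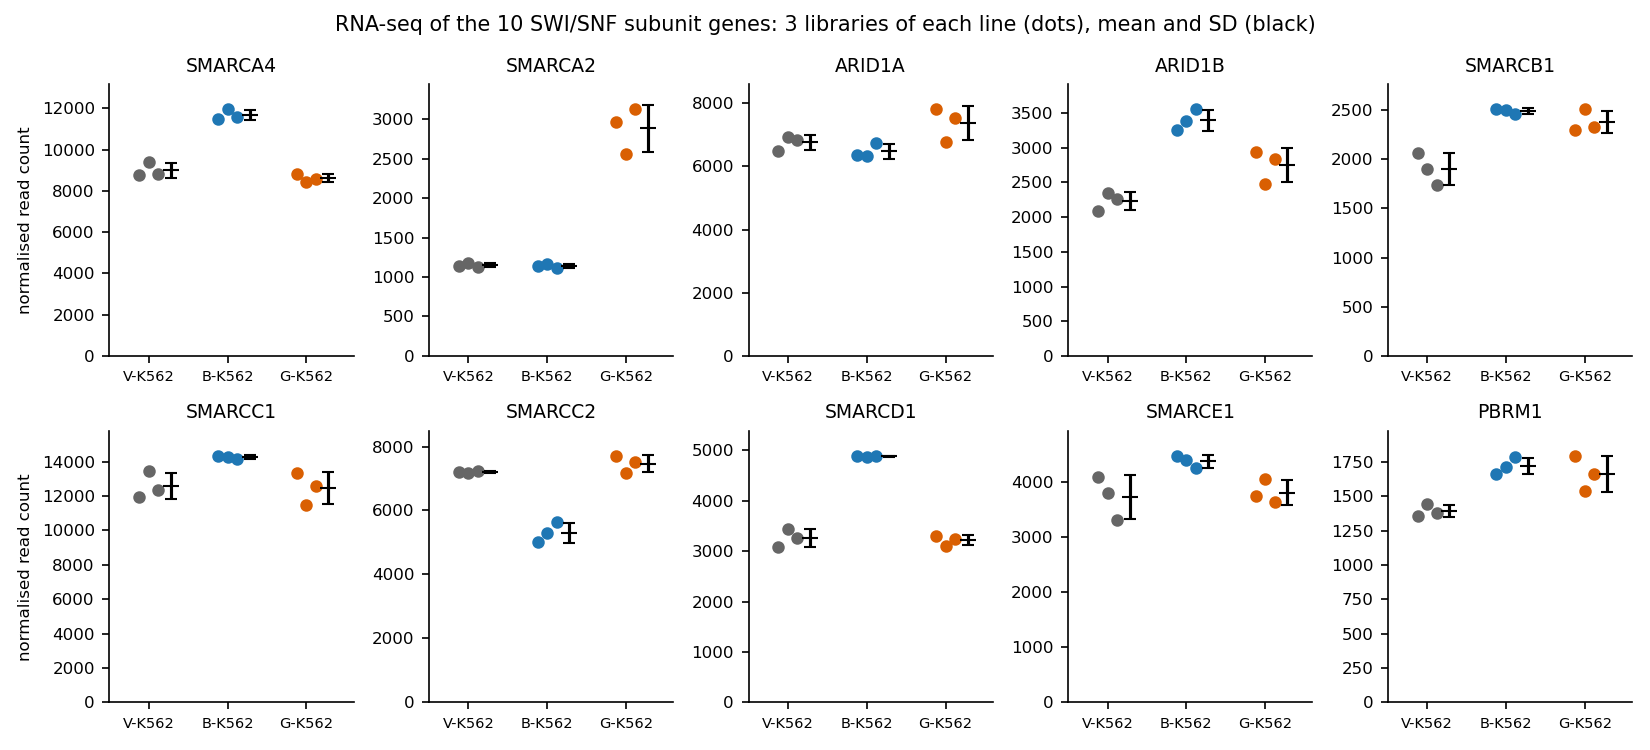
Normalised read counts of the 10 subunit genes (vertical axes, each from 0) in the 3 libraries of each line, with the mean and SD of each line in black. SMARCA2 stands near 1150 in V-K562 and B-K562 and between 2554 and 3127 in G-K562, while SMARCD1 is high in the B-K562 libraries alone.

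The 2 ATPase genes moved differently. SMARCA4 rose in B-K562 but not in G-K562, and SMARCA2 rose about 2.5-fold in G-K562 with no call in B-K562. SMARCA4 (Entrez gene 6597, chr19:10960922-11062282, plus strand) gave normalised read counts of 8778, 9419 and 8811 in V-K562, 11481, 11960 and 11595 in B-K562, and 8807, 8442 and 8581 in G-K562. All B-K562 libraries lay above the others, and those of V-K562 and G-K562 overlapped. The log2 difference between B-K562 and V-K562 was 0.38 (SE 0.05, adjusted p = 5.7e-06 in limma), and that between G-K562 and V-K562 was -0.06 (SE 0.05, adjusted p = 0.313), with a 95% interval from -0.18 to 0.05. Between G-K562 and B-K562 it was -0.44 (SE 0.04, adjusted p = 5e-07).

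SMARCA2 (Entrez gene 6595, chr9:2015219-2193624, plus strand) gave 1142, 1177 and 1131 in V-K562, 1134, 1168 and 1120 in B-K562, and 2967, 2554 and 3127 in G-K562. The lines V-K562 and B-K562 overlapped fully, and the lowest G-K562 library was more than 2-fold above the highest of either. The rise in G-K562 was 1.32 on the log2 scale against V-K562 (SE 0.08, adjusted p = 5.1e-08 in limma) and 1.33 against B-K562 (SE 0.07, adjusted p = 2.3e-10). This was the only one of the 10 genes past 2-fold in any comparison, a size that 8.81% of all genes tested reached upwards against V-K562 and 17.4% against B-K562. In B-K562 the difference from V-K562 was -0.01 (SE 0.05, adjusted p = 0.851), with a 95% interval from -0.13 to 0.10.

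Since both ATPases are measured in the same library, their ratio can be read without regard to the scaling between libraries. Per kb of exon, SMARCA2 stood at 0.114 ± 0.00234 of SMARCA4 in V-K562 (SD, n = 3), at 0.0873 ± 0.000985 in B-K562 and at 0.299 ± 0.0277 in G-K562. The 3 lines did not overlap. Against V-K562 the ratio in G-K562 was 2.61-fold higher, and against B-K562 3.41-fold higher, while in B-K562 it was 1.31-fold lower than in V-K562. Each of these differences had p = 0.1 in a two-sided exact permutation test, the smallest that 3 libraries against 3 allow, and an adjusted p of 0.113 over the 9 ratio comparisons made.

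The genes whose pattern over the 9 libraries was most like that of SMARCA2 were PSKH1 (Pearson r = 0.999), RCSD1 (r = 0.997) and SLC38A10 (r = 0.997), among 11385 genes averaging 100 or more. For SMARCA4 they were LINC01128, ZCCHC4 and DHX30, each with r = 0.994. The 9 points fall into 3 lines, so r mostly compares the means of the lines, and it is given as a description. The median over the 12 genes tested within 2 Mb of SMARCA2 was 0.19 between G-K562 and V-K562, with quartiles of -0.20 and 0.83, and SMARCA2 lay above 91.7% of them.

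The ARID subunits of canonical BAF also parted. ARID1B rose in both BASP1 lines, more in B-K562, while ARID1A passed no test against V-K562 in either. ARID1B (Entrez gene 57492, chr6:156777892-157210779, plus strand) gave 2094, 2351 and 2265 in V-K562, 3251, 3385 and 3556 in B-K562, and 2938, 2471 and 2841 in G-K562. No line overlapped another, with G-K562 between the other 2. The log2 difference from V-K562 was 0.60 in B-K562 (SE 0.06, adjusted p = 2.8e-07 in limma) and 0.30 in G-K562 (SE 0.08, adjusted p = 0.00446), and G-K562 lay below B-K562 by 0.31 (SE 0.07, adjusted p = 0.00077).

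ARID1A (Entrez gene 8289, chr1:26696031-26782110, plus strand) gave 6504, 6932 and 6852 in V-K562, 6360, 6328 and 6759 in B-K562, and 7815, 6763 and 7534 in G-K562. The V-K562 libraries overlapped those of both other lines. The differences from V-K562 were -0.06 in B-K562 (SE 0.05, adjusted p = 0.25 in limma) and 0.12 in G-K562 (SE 0.06, adjusted p = 0.111). G-K562 was higher than B-K562 by 0.18 (SE 0.06, adjusted p = 0.00847). G-K562 replicate 2 was the lowest of its line, and without it the difference of G-K562 from V-K562 was 0.18 with an adjusted p of 0.0137. Without G-K562 replicate 1 the difference from B-K562 was 0.14, with an adjusted p of 0.0501. Per kb of exon, ARID1B stood at 0.280 ± 0.00727 of ARID1A in V-K562, 0.444 ± 0.0102 in B-K562 and 0.315 ± 0.00546 in G-K562 (SD, n = 3). The 3 lines did not overlap in this ratio (exact permutation p = 0.1 for each pair, adjusted p = 0.113).

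**Figure D2:**
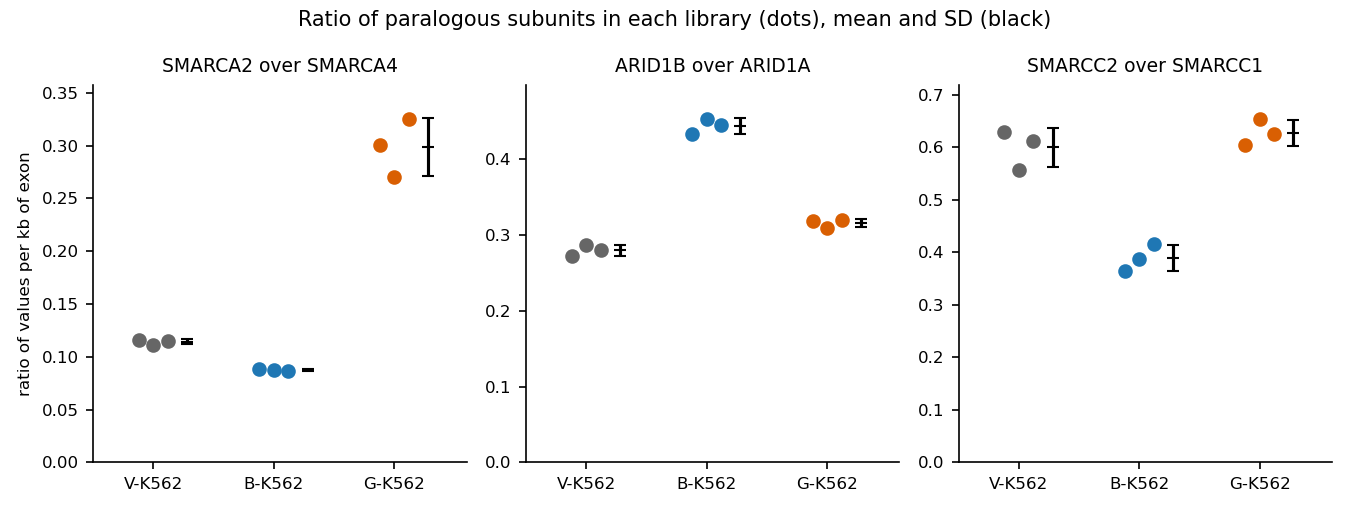
Ratio of the values per kb of exon of 3 pairs of paralogous subunits (vertical axes, each from 0) in the 3 libraries of each line, with the mean and SD in black. SMARCA2 over SMARCA4 is highest in G-K562, ARID1B over ARID1A is highest in B-K562, and SMARCC2 over SMARCC1 is lowest in B-K562.

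Of the core subunits, SMARCD1, SMARCB1, SMARCC1 and SMARCE1 rose in B-K562 and SMARCC2 fell. In G-K562 SMARCB1 alone of the 5 rose against V-K562, and the other 4 passed no test there. SMARCD1 (Entrez gene 6602, chr12:50085200-50100711, plus strand), which links the complex to transcription factors, gave 3089, 3448 and 3266 in V-K562, 4894, 4876 and 4892 in B-K562, and 3291, 3108 and 3251 in G-K562. The B-K562 libraries stood well above the rest. Its log2 difference from V-K562 was 0.58 in B-K562 (SE 0.05, adjusted p = 1.2e-07 in limma) and -0.02 in G-K562 (SE 0.06, adjusted p = 0.764), and G-K562 lay below B-K562 by 0.60 (adjusted p = 4.1e-08).

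SMARCC1 and SMARCC2 are scaffold paralogues that pair with each other in the complex. SMARCC2 (Entrez gene 6601, chr12:56161852-56189567, minus strand) gave 7189, 7163 and 7239 in V-K562, 5000, 5305 and 5626 in B-K562, and 7714, 7175 and 7501 in G-K562. Every B-K562 library was below every other, and V-K562 and G-K562 overlapped. SMARCC2 fell by 0.44 on the log2 scale in B-K562 against V-K562 (SE 0.05, adjusted p = 2.2e-06 in limma), differed by 0.05 in G-K562 (SE 0.05, adjusted p = 0.398), and exceeded its B-K562 level in G-K562 by 0.49 (SE 0.05, adjusted p = 4.6e-07).

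SMARCC1 (Entrez gene 6599, chr3:47585888-47781915, minus strand) gave 11948, 13436 and 12359 in V-K562, 14348, 14293 and 14173 in B-K562, and 13329, 11470 and 12561 in G-K562. It rose by 0.18 in B-K562 (SE 0.05, adjusted p = 0.00463 in limma), a call lost with upper-quartile scaling, where the difference was 0.03 and the adjusted p 0.581. In G-K562 it differed from V-K562 by -0.02 (SE 0.07, adjusted p = 0.854), and it lay below B-K562 by 0.20 (SE 0.06, adjusted p = 0.0066), which upper-quartile scaling reduced to -0.08 (adjusted p = 0.218). The ratio of SMARCC2 to SMARCC1 per kb of exon was 0.600 ± 0.0375 in V-K562, 0.389 ± 0.0253 in B-K562 and 0.628 ± 0.0247 in G-K562 (SD, n = 3). B-K562 lay below both other lines (exact permutation p = 0.1, adjusted p = 0.113), and V-K562 and G-K562 overlapped (exact permutation p = 0.5).

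SMARCB1 (Entrez gene 6598, chr22:23786963-23834518, plus strand), the core subunit lost in malignant rhabdoid tumours, gave 2062, 1898 and 1733 in V-K562, 2508, 2503 and 2456 in B-K562, and 2297, 2507 and 2329 in G-K562. Both BASP1 lines lay above V-K562 without overlap, and they overlapped each other. The differences from V-K562 were 0.40 in B-K562 (SE 0.06, adjusted p = 4.8e-05 in limma) and 0.33 in G-K562 (SE 0.07, adjusted p = 0.0018). The interval of the difference between G-K562 and B-K562 ran from -0.20 to 0.07 (adjusted p = 0.333).

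SMARCE1 (Entrez gene 6605, chr17:40627720-40647851, minus strand), an HMG-box subunit that binds DNA, gave 4081, 3792 and 3300 in V-K562, 4475, 4396 and 4246 in B-K562, and 3737, 4051 and 3629 in G-K562. It was higher in B-K562 than in V-K562 by 0.24 (SE 0.07, adjusted p = 0.00565 in limma) and than in G-K562, which lay lower by 0.20 (SE 0.07, adjusted p = 0.0157). Both calls were lost with upper-quartile scaling and with quantile normalization, at adjusted p-values of 0.267 to 0.337, and the second also without B-K562 replicate 1 or G-K562 replicate 3 (adjusted p of 0.0546 and 0.0632). PBRM1 (Entrez gene 55193, chr3:52545352-52685898, minus strand), the PBAF subunit with a row of bromodomains, gave 1357, 1442 and 1376 in V-K562, 1664, 1709 and 1783 in B-K562, and 1795, 1536 and 1659 in G-K562. Both BASP1 lines were above V-K562 without overlap, by 0.30 in B-K562 (SE 0.05, adjusted p = 0.00013) and 0.25 in G-K562 (SE 0.07, adjusted p = 0.0069), and their own difference was -0.05 (adjusted p = 0.471).

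**Figure D3:**
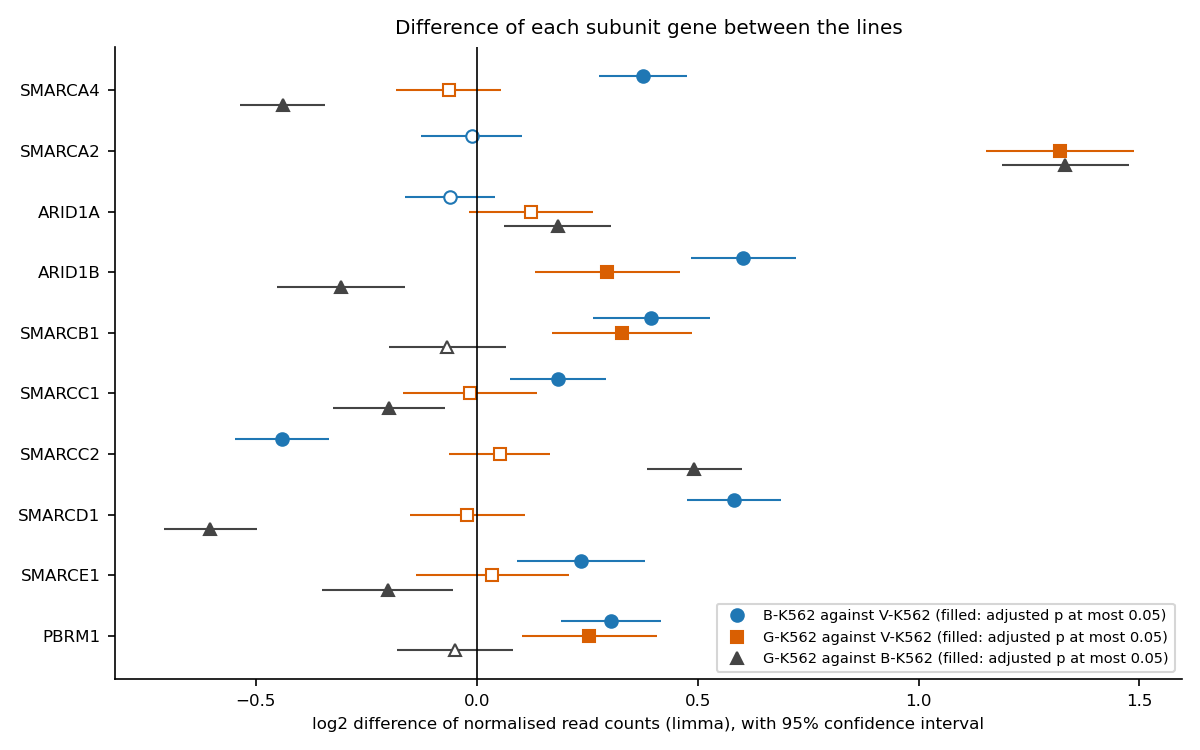
Log2 differences of normalised read counts with 95% confidence intervals (horizontal axis) for each subunit gene in B-K562 against V-K562 (circles), G-K562 against V-K562 (squares) and G-K562 against B-K562 (triangles), filled where the adjusted p was at most 0.05. SMARCA2 alone lies beyond 1, in both comparisons of G-K562, and SMARCC2 is the only gene called lower in B-K562 than in V-K562.

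Counted together, 7 of the 10 genes were higher and 1 lower in B-K562 than in V-K562, against 38.6% and 37.2% of all genes tested. The 8 called genes were also those whose libraries did not overlap, which held for 78.3% of all genes. The number called was thus close to the background, and none of the 10 reached 2-fold, as 6.46% of all genes did upwards and 14.1% downwards. Their median log2 difference was 0.27 and that of all genes 0.01. With upper-quartile scaling the median of all genes moved to -0.15 and the calls over all genes from 5780 higher and 5562 lower to 4525 higher and 6871 lower. With that scaling 5 of the 10 were higher and 3 lower, SMARCA2 and ARID1A joining SMARCC2.

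In G-K562 against V-K562, 4 of the 10 were higher (SMARCA2, ARID1B, SMARCB1 and PBRM1) and 0 lower, against 33.5% and 33.3% of all genes. The count of 0 also held at an unadjusted limma p under 0.05, and quantile normalization gave 1, SMARCA4 at -0.12 (adjusted p = 0.0485). Libraries did not overlap for 4 genes, against 70.2% of all genes, and the median was 0.09. Between G-K562 and B-K562, 3 were higher (SMARCA2, SMARCC2 and ARID1A) and 5 lower (SMARCA4, ARID1B, SMARCC1, SMARCD1 and SMARCE1), against 38.1% and 40.5% of all genes, with 8 not overlapping against 81%. The median was -0.13. Long transcripts moved slightly upwards in G-K562: genes with over 6000 bp of exon had a median difference from V-K562 of 0.06, and those of up to 2000 bp one of -0.07. The 10 genes have 1757 to 10147 bp of exon, and the part of length in their differences was not tested.

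Levels per kb of exon put SMARCC1 first in all 3 lines, at 2118 ± 129 in V-K562 (SD, n = 3), and SMARCE1 at 1536 ± 163 and SMARCA4 at 1465 ± 58.7 next, which overlapped each other. SMARCC2 followed at 1267 ± 6.8, then SMARCB1 at 1080 ± 93.6 and SMARCD1 at 941 ± 51.7, which overlapped, and ARID1A at 788 ± 26.5. The lowest were ARID1B at 220 ± 12.9, SMARCA2 at 167 ± 3.49 and PBRM1 at 164 ± 5.27, the last pair overlapping. In B-K562 SMARCB1 at 1417 ± 16.3 and SMARCD1 at 1407 ± 2.72 stood above SMARCC2, which had fallen to 935 ± 55.1. Both also lay above the V-K562 level of SMARCC2. There SMARCA4 at 1900 ± 40.7 moved past SMARCE1 at 1803 ± 48.0, and PBRM1 at 203 ± 7.09 past SMARCA2 at 166 ± 3.65. In G-K562 SMARCA2 moved past ARID1B to 419 ± 42.9, and SMARCA4, SMARCB1 and SMARCC2 overlapped as neighbours in the order. Among the 15521 genes tested in the fit of all 9 libraries, SMARCA2 lay at percentile 48.9 in V-K562 and 68.8 in G-K562, and SMARCC1 above percentile 93 in all 3 lines.

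Other subunits of the family and the ATPases of other remodellers were counted from lists chosen by name. Of 19 further SWI/SNF genes 18 were tested, ACTL6B, the neuronal actin-like subunit, being at 0 or 1 in every library. In B-K562 13 of the 18 were higher than in V-K562 and 1, SMARCD3, was lower, against 38.6% and 37.2% of all genes tested. Their median of 0.27 was that of the 10. In G-K562 7 were higher and 4 lower, against 33.5% and 33.3%. Between G-K562 and B-K562 1, BICRAL, was higher and 10 were lower, against 38.1% and 40.5%. Past 2-fold were DPF1, a PHD-finger subunit of neuronal BAF, and DPF3. DPF1 gave 122, 119 and 119 in V-K562, 191, 170 and 177 in B-K562, and 54, 72 and 53 in G-K562, a difference of -1.01 between G-K562 and V-K562 (SE 0.15, adjusted p = 0.00013 in limma) and of -1.58 between G-K562 and B-K562 (SE 0.13, adjusted p = 6.4e-08). DPF3 was lower in G-K562 than in B-K562 by 1.12 (SE 0.12, adjusted p = 7.1e-07). Among all genes tested 10.3% fell at least 2-fold between G-K562 and V-K562 and 12.5% between G-K562 and B-K562.

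Of 17 ATPases of the ISWI, CHD, INO80 and related families, 12 were higher and 1, CHD2, lower in B-K562 than in V-K562, with a median of 0.50. The shares of all genes there were 38.6% and 37.2%. In G-K562 9 were higher and 1, CHD7, lower than in V-K562, against 33.5% and 33.3%. Between G-K562 and B-K562 3 were higher and 7 lower, against 38.1% and 40.5%. SMARCA1, an ISWI ATPase, gave 334, 365 and 332 in V-K562, 329, 360 and 352 in B-K562, and 798, 896 and 876 in G-K562. Like SMARCA2 it was high in G-K562 alone, by 1.31 against V-K562 (SE 0.08, adjusted p = 8.9e-08 in limma) and 1.30 against B-K562 (SE 0.08, adjusted p = 1e-09). CHD7 was lower in G-K562 than in B-K562 by 1.84 (SE 0.06, adjusted p = 4.7e-12). Of all genes tested 12.5% fell at least 2-fold in that comparison and 17.4% rose as far, and 8.81% rose as far in G-K562 against V-K562.

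Chromatin accessibility was read from the highest pileup of tags at the peak summits of a region in each library. The 72 regions comprised 12 at the starts of these genes (within 500 bp), 50 in introns, 3 in exons, 2 upstream and 5 downstream. ARID1B, which spans 433 kb, held 30 of them, ARID1A 11 and SMARCC1 10. A peak was called in all 9 libraries for 28 regions and in 1 library for 14. At each of the 10 starts 1 region had a peak in every library, so all of these genes carried an accessible start in the 3 lines. In the accounts that follow, pileups are given as deposited, and log2 differences follow scaling between libraries and a floor of 17 for a library with no peak.

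**Figure D4:**
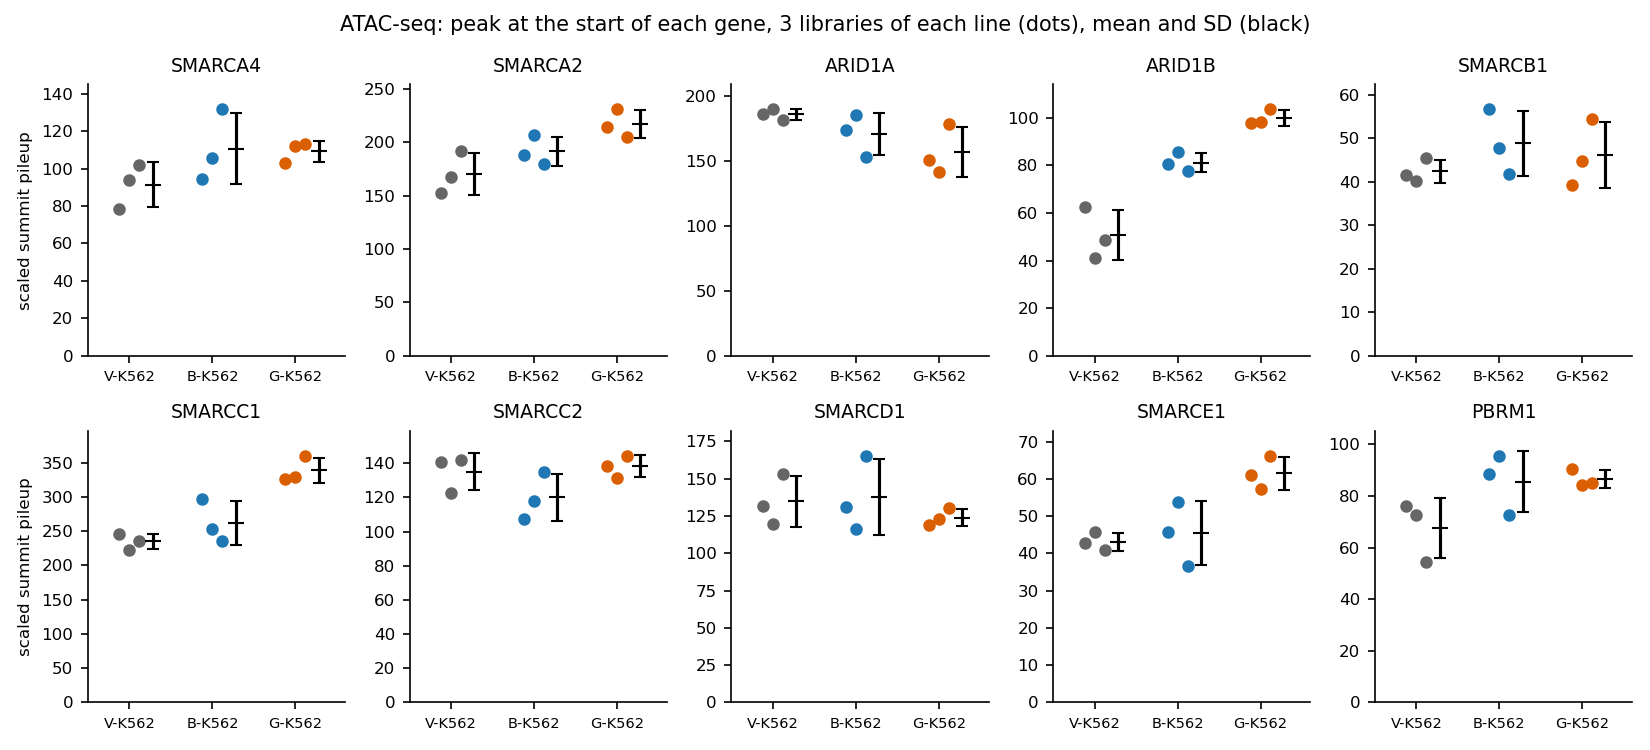
Scaled summit pileup (vertical axes, each from 0) of the region at each gene's start in the 3 libraries of each line, with the mean and SD in black. ARID1B rises from V-K562 to B-K562 and G-K562, and SMARCA2, SMARCC1 and SMARCE1 are highest in G-K562.

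The clearest start region was that of ARID1B (chr6:156777120-156777597), which lies over the window shown above with its summit inside it. Its pileup was 54, 37 and 43 tags in V-K562, 81, 84 and 76 in B-K562, and 112, 110 and 122 in G-K562, with no overlap between lines. The log2 difference from V-K562 was 0.70 in B-K562 (SE 0.18, adjusted p = 0.0249 in limma) and 1.02 in G-K562 (SE 0.17, adjusted p = 0.00267). The call in B-K562 was lost without any 1 of 5 of the 6 libraries, V-K562 replicate 1 being the exception (adjusted p of 0.0556 to 0.0762), and with scaling by GC content (0.45, adjusted p = 0.15). That in G-K562 was kept in every alternative run.

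The SMARCA2 start region (chr9:2014881-2015536) had pileups of 132, 150 and 169 in V-K562, 189, 203 and 176 in B-K562, and 246, 258 and 241 in G-K562. As deposited, no line overlapped another. After scaling, V-K562 and B-K562 overlapped, with a difference of 0.19 (SE 0.11, adjusted p = 0.24 in limma), and G-K562 lay above V-K562 by 0.38 (SE 0.11, adjusted p = 0.0222). This was lost without V-K562 replicate 1 or 2 or G-K562 replicate 2 (adjusted p of 0.0559 to 0.0587), with peaks of a summit of at least 30 (0.29, adjusted p = 0.0564) and with scaling by GC content (0.12, adjusted p = 0.396). Between G-K562 and B-K562 the start region differed by 0.18 (SE 0.10, adjusted p = 0.229), where the transcript differed by 1.33. With no scaling between libraries the start difference was 0.39 and passed (adjusted p = 0.0133 in limma). The 3 further RefSeq starts of SMARCA2 overlapped no region, and none of its other regions had enough peaks to be tested against V-K562.

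SMARCC1 and SMARCE1 had start regions that opened in G-K562 although their transcripts passed no test there. The SMARCC1 region (chr3:47781340-47782456) had pileups of 213, 200 and 208 in V-K562, 299, 249 and 231 in B-K562, and 374, 368 and 424 in G-K562. After scaling it was higher in G-K562 than in V-K562 by 0.56 (SE 0.08, adjusted p = 0.00118 in limma) and than in B-K562 by 0.37 (SE 0.09, adjusted p = 0.014). The second call was lost without B-K562 replicate 3 (0.30, adjusted p = 0.0502), and scaling by GC content lost both (adjusted p of 0.122 and 0.0906). The SMARCE1 region (chr17:40647915-40648572) gave 37, 41 and 36 in V-K562, 46, 53 and 36 in B-K562, and 70, 64 and 78 in G-K562, a difference of 0.54 between G-K562 and V-K562 (SE 0.15, adjusted p = 0.0215). That call was lost without any 1 of 5 of the 6 libraries, G-K562 replicate 2 being the exception (adjusted p of 0.0501 to 0.0864), and with the replicate number as a block (adjusted p = 0.0529). Scaling by GC content lost it as well (0.33, adjusted p = 0.121 in limma).

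At the other 6 genes the start regions passed no test between any of the lines. Alternatives called some of them, in opposite directions: no scaling between libraries raised SMARCA4, SMARCC2 and PBRM1 in G-K562 against V-K562 (adjusted p of 0.00594 to 0.0122), and scaling by GC content lowered ARID1A and SMARCD1 there (-0.64 and -0.39, adjusted p of 0.00554 and 0.0304). That of SMARCA4 (chr19:10960453-10961220) gave 68, 84 and 90 in V-K562, 95, 104 and 129 in B-K562, and 118, 125 and 133 in G-K562. That of SMARCD1 (chr12:50084886-50085707) gave 114, 107 and 135, then 132, 114 and 162, then 136, 137 and 153 in the same order of lines. For SMARCD1 the scaled difference between B-K562 and V-K562 was 0.04 (SE 0.15, adjusted p = 0.872 in limma), where the transcript differed by 0.58. The PBRM1 start region (chr3:52685381-52686257) also holds the start of GNL3 on the other side, so its tags cannot be given to 1 gene.

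Among the regions at starts, 10 were tested between B-K562 and V-K562, of which 1 opened and 0 closed. Over all regions tested 8.69% opened and 16.5% closed, and over all regions at any gene start 18.7% and 3.2%. Between G-K562 and V-K562 4 of 10 opened and 0 closed, against 16.2% and 25.8% of all regions and 38.2% and 5.57% of those at starts. Between G-K562 and B-K562 1 of 11 opened and 0 closed, against 12.4% and 15.5% of all regions and 13.2% and 8.11% of those at starts. The counts of 0 closed held at an unadjusted limma p under 0.05. These counts lie near the shares of gene starts in general. Start regions were GC-rich, 61.2% to 76.7%, against a median of 47.5% for the other subunit regions, and with scaling by GC content 5 of the 6 calls at starts were lost. Set beside the transcripts, the 1 gene whose start opened in B-K562 was among the 7 whose transcript was higher, and the other 6 had no call at the start. In G-K562 2 of the 4 genes with an opened start had a higher transcript.

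**Figure D5:**
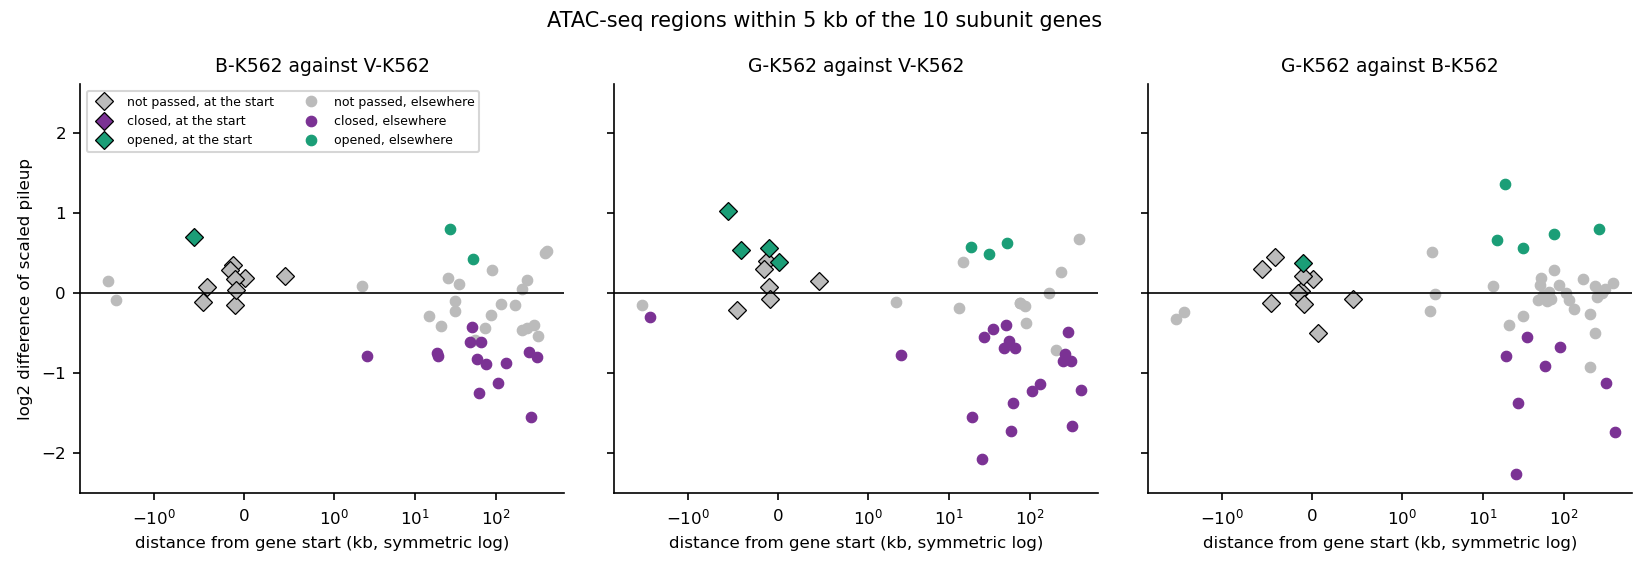
Log2 difference of scaled pileup (vertical axis) for each tested region within 5 kb of the 10 genes by distance of its summit from the gene's start (horizontal axis, kb, symmetric log scale), with regions at starts as diamonds and called regions in colour. Closed regions lie within the genes or at their flanks and none at the start of its own gene, and the lowest in G-K562 reach -2.07 against V-K562 and -2.25 against B-K562. Both of these lowest values have every G-K562 library at the floor of 17.

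Away from their own genes' starts, 3 of the other regions had a summit within 500 bp of a neighbour's start (DERL3, MYL6 and GPD1) and are counted apart. The shares of all regions given here include regions at gene starts. Those opened more often and closed less often, 18.7% and 3.2% in B-K562 and 38.2% and 5.57% in G-K562 against V-K562. Away from starts, closing was thus more frequent, and opening less frequent, than the shares of all regions. Of 36 regions at no gene start tested between B-K562 and V-K562, 1 opened and 13 closed, against 8.69% and 16.5% of all regions. Of these 3 closed past 2-fold, a size that 6.12% of all regions reached downwards and 1.53% upwards. Of 32 between G-K562 and V-K562, 0 opened (2 at an unadjusted limma p under 0.05) and 20 closed, against 16.2% and 25.8%. Of these 8 closed past 2-fold, against 13% of all regions, and the 1 opened 2-fold among all regions of these genes was the ARID1B start, against 2.92%. Of 39 between G-K562 and B-K562, 3 opened and 8 closed, against 12.4% and 15.5%, with 4 of the latter past 2-fold, against 8.56%. At the 3 neighbours' starts 1 opened and 1 closed in B-K562 and 3 opened in G-K562 against V-K562, and 2 opened between G-K562 and B-K562, 1 past 2-fold, against 4.32% of all regions. ARID1B contributed most, with 8 closed in B-K562 and 11 in G-K562. These counts moved with the processing. Leaving out 1 library at a time left 7 to 10 of all regions of the 10 genes closed in B-K562, from 14, and for G-K562 13 to 15, from 20. With no scaling between libraries the regions of all 10 genes, starts included, went from 7 opened and 20 closed in G-K562 against V-K562 to 13 opened and 11 closed, and all regions tested from 8784 opened and 14004 closed to 16887 and 9855. For B-K562 against V-K562 all regions tested went from 4538 opened and 8615 closed to 8254 and 6627, and for G-K562 against B-K562 from 7478 and 9339 to 13662 and 8000.

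Inside ARID1B, the region 271 kb into the gene (chr6:157049124-157049577) had pileups of 47, 55 and 54 in V-K562, no peak, 21 and 18 in B-K562, and 42, 31 and 43 in G-K562. It closed in B-K562 with a log2 difference of -1.54 (SE 0.19, adjusted p = 0.00245 in limma), and the G-K562 libraries lay between, at -0.77 (adjusted p = 0.0113), a call lost with no scaling and with scaling by GC content (adjusted p of 0.102 and 0.133). The region 330 kb into the gene (chr6:157107833-157108301) gave 61, 50 and 67 in V-K562, 64, 30 and 46 in B-K562, and 29, 21 and no peak in G-K562. Its difference in G-K562 was -1.66 against V-K562 (SE 0.22, adjusted p = 0.00108) and -1.13 against B-K562 (SE 0.28, adjusted p = 0.0136). The exonic region 430 kb into the gene (chr6:157207575-157208069) gave 58, 26 and 31 in V-K562, 80, 61 and 40 in B-K562, and no peak in any G-K562 library, a difference at the floor of -1.21 against V-K562 (adjusted p = 0.0137) and of -1.73 against B-K562 (adjusted p = 0.00352).

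Further ARID1B intron regions were called closed in both lines, not all of them stably. The one 61.9 kb into the gene (chr6:156839536-156839971) had pileups of 34, 68 and 53 in V-K562, 34, 16 and 19 in B-K562, and 23, 18 and 31 in G-K562, with differences of -1.25 (SE 0.32, adjusted p = 0.0255 in limma) and -1.37 (SE 0.29, adjusted p = 0.00731). The first was lost without V-K562 replicate 2 or 3 or B-K562 replicate 2 or 3 (adjusted p of 0.0702 to 0.0754) and with scaling by GC content (-1.09, adjusted p = 0.0568). The one 109 kb into it (chr6:156886364-156886736) gave 28, 42 and 41 in V-K562 and no peak in any library of the BASP1 lines, with differences at the floor of -1.13 (adjusted p = 0.00621) and -1.22 (adjusted p = 0.00194). It could be tested in only 10 of 15 alternatives, and not with any V-K562 library left out, since too few peaks then remained. The one 135 kb into it (chr6:156912493-156912816) gave 48, 27 and 31 in V-K562, a single peak of 26 in B-K562 and a single one of 19 in G-K562, at -0.87 (adjusted p = 0.0476) and -1.14 (adjusted p = 0.00642). Its call in B-K562 was lost with the replicate number as a block (adjusted p = 0.0591), with no scaling, scaling by GC content, the mean pileup and merging by summits (adjusted p of 0.0512 to 0.107), and without V-K562 replicate 1 or 3 or B-K562 replicate 1 or 3 (adjusted p of 0.0774 to 0.134). A library with no peak was not shown to have no tags, so a difference at the floor is set by that value. Where every library of a line is at the floor, that line adds no measured spread to the p. ARID1B transcripts were higher in both BASP1 lines, where these intron regions were called closed and the start region opened, with the losses given above.

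Of the SMARCC1 intron regions called closed in both BASP1 lines, the 2 past 2-fold in G-K562 had B-K562 between V-K562 and G-K562. The one 19.5 kb into the gene (chr3:47762224-47762664) gave pileups of 71, 83 and 79 in V-K562, 50, 52 and 47 in B-K562, and 31, 26 and 44 in G-K562. Its difference from V-K562 was -0.78 in B-K562 (SE 0.14, adjusted p = 0.00639 in limma, but 0.057 with scaling by GC content) and -1.55 in G-K562 (SE 0.20, adjusted p = 0.00102), and G-K562 lay below B-K562 by 0.79 (adjusted p = 0.00944). The one 58.8 kb into the gene (chr3:47722867-47723244) gave 72, 65 and 71 in V-K562, 44, 41 and 44 in B-K562, and 29, no peak and 32 in G-K562, a difference of -1.72 in G-K562 against V-K562 (SE 0.22, adjusted p = 0.00091). Its call in B-K562 against V-K562 was lost with the replicate block and scaling by GC content together (-0.54, adjusted p = 0.0765 in limma).

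ARID1A held 2 intron regions less than 2 kb apart that separated wtBASP1 from BASP1-G2A. At 26 kb into the gene (chr1:26721763-26722226) pileups were 80, 53 and 69 in V-K562 and 86, 83 and 83 in B-K562, and no peak was called in G-K562, a difference of -2.25 between G-K562 and B-K562 (SE 0.17, adjusted p = 1.8e-05 in limma). Every G-K562 value there is the floor of 17, which sets the size of the difference and adds no measured spread to the SE and p. At 27.6 kb (chr1:26723285-26723905) pileups were 129, 119 and 133 in V-K562, 295, 217 and 234 in B-K562, and 102, 111 and 116 in G-K562. All B-K562 libraries were above and all G-K562 libraries below those of V-K562. The difference from V-K562 was 0.80 in B-K562 (SE 0.12, adjusted p = 0.00369) and -0.55 in G-K562 (SE 0.10, adjusted p = 0.00472, but 0.128 with no scaling), while ARID1A transcripts passed no test against V-K562 in either line.

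Some regions beyond the ends of the genes lay at starts of their neighbours. The one 18.7 kb from the SMARCD1 start (chr12:50103745-50104191), whose nearest start is that of GPD1, gave 30, 32 and 36 in V-K562, 30 in 1 B-K562 library and no peak in the other 2, and 62, 64 and 60 in G-K562. It exceeded B-K562 in G-K562 by 1.35 (SE 0.23, adjusted p = 0.00194 in limma). Those downstream of SMARCB1 and SMARCC2 had the starts of DERL3 and MYL6 as their nearest. Distance alone placed these regions with the subunit genes.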

How the data were processed

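K562 derivatives were profiled by RNA-seq and ATAC-seq, with 3 libraries per line and assay. The authors aligned RNA-seq reads to GRCh38, removed duplicates, assigned reads to RefSeq genes with Subread and divided counts by DESeq2 size factors, and the deposited signal per gene is that quotient, rounded. ATAC-seq libraries were down-sampled by the authors to equal tags, and peaks were called per library with MACS2 at p = 1e-07, each peak deposited with its pileup. The authors' own comparison columns (fold changes and p-values) were not used.

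RNA-seq values were taken as log2(value + 1) for genes with at least 10 in at least 3 libraries and tested with limma 3.58.1 (R 4.3.3, trended variance, Benjamini-Hochberg). Each BASP1 line was fitted with V-K562 in its own table, and G-K562 against B-K562 over all 9 libraries after B-K562 columns were brought to the other table's scale by a factor of 1.02, the mean ratio of its V-K562 columns. B-K562 values are printed on that scale. Fold changes are on the log2(value + 1) scale. Overlapping peaks formed 85549 regions, whose highest pileup at a summit was scaled by a trimmed mean of ratios, set to 17 (the 5th percentile of summits) where a library had no peak, and tested likewise for regions with peaks in at least 3 libraries of the comparison. Opened and closed mean an adjusted p of at most 0.05 with a higher or lower value.

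Both fits were tested on simulated data. For ATAC-seq the simulation drew on regions with a peak in every library fitted, so it did not test missing peaks set to the floor. Named were all 10 genes, other remodeller genes and regions past the threshold and 2-fold, and the 3 genes most correlated with each ATPase gene. The members and lists were chosen with earlier results of these data known. Replicate numbers are shared between lines, but same-numbered libraries deviated together weakly (correlations of -0.0802 to 0.136 for RNA-seq and 0.00704 to 0.122 for ATAC-seq), so they were not treated as pairs in the main fits. Differently numbered libraries gave -0.16 to 0.208 for RNA-seq and -0.0838 to 0.0472 for ATAC-seq. With the replicate number as a block some ATAC-seq calls were lost, as given above. The alternatives tried were other pseudocounts, filters, scalings and floors, peak rules, a replicate block and leaving out each library.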

Additional observations from a re-analysis of the deposited data

Results flagged for a closer look

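In 2 regions the 2 BASP1 lines differed from V-K562 in opposite directions, and their own difference passed the test. The first was the ARID1A intron region 27.6 kb into the gene, opened in B-K562 and closed in G-K562 against V-K562, where the log2 difference between G-K562 and B-K562 was -1.37 (SE 0.11, adjusted p = 2.6e-05 in limma). The closing in G-K562 was lost with no scaling (adjusted p = 0.128). The difference between the BASP1 lines passed in every alternative run, from -1.46 to -1.16, with every B-K562 library above every G-K562 library.

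The second was the region 18.7 kb from the SMARCD1 start, at the start of GPD1, with a difference of 1.35 (SE 0.23, adjusted p = 0.00194 in limma). Over the alternatives in which it could be tested the difference ran from 1.14 to 1.83, all passing. Its separate calls against V-K562, on which the opposite directions rest, were both lost with the replicate number as a block (adjusted p of 0.0607 in B-K562 and 0.0568 in G-K562). The one in B-K562 was also lost with no scaling (adjusted p = 0.0891) and the one in G-K562 with scaling within GC bins (adjusted p = 0.0765), and leaving out single libraries raised the adjusted p to 0.157 and 0.0843 at most.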

How the results depend on the processing

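Of 20 RNA-seq differences that passed, 15 passed in every alternative, as did 1 of 6 at start regions. At the other named regions 19 of 27 passed in every alternative in which they could be tested, which was not always all of them. The ARID1B region 109 kb into the gene was tested against V-K562 in 10 of 15 alternatives, and so was the one 430 kb into it for G-K562. No difference that passed turned its direction. The cause of the changes below was not tested.

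For RNA-seq, the number of the 10 genes lower in B-K562 than in V-K562 was 2 with quantile normalization and 3 with upper-quartile scaling, that lower in G-K562 against V-K562 was 1 with quantile normalization, and that lower in G-K562 than in B-K562 was 3 with upper-quartile scaling. Leaving out each library gave 7 to 7 higher and 1 to 1 lower in B-K562 against V-K562, 4 to 5 and 0 to 0 in G-K562 against V-K562, and 2 to 3 and 4 to 5 in G-K562 against B-K562.

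For ATAC-seq, regions closed in B-K562 against V-K562 numbered 9 with scaling within GC bins, 7 with a peak in every library, 8 with summits of at least 30, 6 with the replicate block and GC bins together, and 7 to 10 on leaving out each library (fewest without V-K562 replicate 3, 8 without V-K562 replicate 2 or B-K562 replicate 3, 9 without B-K562 replicate 2), while 1 to 3 opened (1 without V-K562 replicate 3 or B-K562 replicate 2 or 3). In G-K562 against V-K562, 13 opened with no scaling, 4 with GC bins, 3 with block and GC bins, and 4 to 6 on leaving out each library (4 without V-K562 replicate 1). Closed there were 11 with no scaling, 10 with a peak in every library, 13 with summits of at least 30, and 13 to 15 on leaving out each library (13 without V-K562 replicate 1 or 3). In G-K562 against B-K562, 12 opened with no scaling, 3 closed with a peak in every library, and leaving out each library gave 4 to 7 opened and 7 to 9 closed. Without scaling the median over all regions moved from -0.06 to 0.06, from -0.09 to 0.19 and from 0 to 0.12 in the 3 comparisons.

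Differences that changed sign had not passed the test. With quantile normalization they were, for G-K562 against V-K562, 0.00612 at SMARCC1, and for G-K562 against B-K562 0.065 at SMARCB1 and 0.053 at PBRM1. With upper-quartile scaling the latter 2 were 0.057 and 0.074. Start regions with scaling within GC bins, and equally with the replicate block added, gave for B-K562 against V-K562 -0.020 at SMARCA4, -0.00043 at SMARCB1, -0.088 at SMARCC1, -0.17 at SMARCD1 and -0.068 at SMARCE1, for G-K562 against V-K562 -0.12 at SMARCA4, -0.16 at SMARCB1 and -0.19 at SMARCC2, and for G-K562 against B-K562 -0.067 at PBRM1. With no scaling they gave 0.042 at ARID1A for B-K562 against V-K562, 0.13 at ARID1A and 0.26 at SMARCD1 for G-K562 against V-K562, and 0.21 at SMARCA4, 0.088 at ARID1A, 0.13 at SMARCB1 and 0.075 at SMARCD1 for G-K562 against B-K562. The mean pileup gave -0.27 at SMARCD1 for B-K562 against V-K562 and 0.098 at SMARCA4 for G-K562 against B-K562. Summits of at least 30 gave -0.023 at SMARCD1, -0.026 at SMARCC2 and -0.00239 at PBRM1 for the 3 comparisons in turn.

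Leaving out each library spanned 0 for transcripts from -0.029 to 0.0065 at SMARCA2 in B-K562 against V-K562, from -0.066 to 0.042 at SMARCC1, -0.061 to 0.018 at SMARCD1 and -0.049 to 0.10 at SMARCE1 in G-K562 against V-K562, and from -0.11 to 0.0067 at PBRM1 in G-K562 against B-K562. For start regions it spanned 0 from -0.086 to 0.17 at SMARCD1 and -0.038 to 0.23 at SMARCE1 in B-K562 against V-K562, from -0.16 to 0.011 at SMARCD1 in G-K562 against V-K562, and from -0.11 to 0.12 at SMARCA4, -0.19 to 0.032 at SMARCB1, -0.25 to 0.0022 at SMARCD1 and -0.088 to 0.11 at PBRM1 in G-K562 against B-K562.

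With the replicate number as a block, RNA-seq counts stayed at 7 higher and 1 lower, 4 and 0, and 3 and 5, and ATAC-seq counts were 3 opened and 11 closed, 5 and 19, and 6 and 8. A peak missing from a library shows only that none was called, and 3 libraries per line limit how small a difference can be called.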
